A study of Mus musculus with 48 samples.

Results

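The genes described here are 10 members of the netrin and Slit axon guidance systems: the secreted ligands Ntn1, Slit1, Slit2 and Slit3, the netrin receptors Dcc, Unc5a, Unc5b and Unc5c, and the Slit receptors Robo1 and Robo2. They were picked by gene symbol, 10 of the 36935 genes in the deposited table, and all 10 passed the filter on low counts in every fit. The choice used measured values: the low level of Ntn1 in double knockout stem cells at day 0 brought the group forward, so for the double knockout against E14 at day 0 levels are given as a description with no test of any member. For the same reason Ntn1 was tested in no comparison that holds the day 0 libraries of E14 or of the double knockout.

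RNA was sequenced from the mouse embryonic stem cell line E14 and from 3 derivatives of it, labelled KAT6A-/-, KAT6B-/- and KAT6A-/-; KAT6B-/- (the double knockout), with E14 labelled wildtype. KAT6A and KAT6B are related lysine acetyltransferases that modify histone H3. Each genotype was sampled as untreated stem cells in LIF (day 0), as embryoid bodies without LIF (day 2), as embryoid bodies given all-trans retinoic acid at 10 µM from day 4 (day 6), and as dissociated neural progenitors plated at day 8 in N2 and B27 medium (day 15). There were 3 libraries in each of the 16 groups, from 3 independent differentiation experiments, and the labels do not give the number of clones behind each knockout.

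Netrin-1 is a secreted, laminin-related cue. Axons that carry DCC are drawn toward it, and receptors of the UNC5 family, alone or with DCC, turn the response to repulsion. Slit proteins are large secreted ligands that repel axons through ROBO receptors, and in the spinal cord and hindbrain both systems act at the ventral midline, where commissural axons cross. DCC and UNC5 receptors are also known as dependence receptors, which can promote cell death when no netrin is bound.

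Total counts ran from 22.5 M to 72.2 M per library. Levels below are CPM, each count relative to the library total after scaling by trimmed means (TMM) over the 48 libraries, as mean ± SD with n = 3 unless single libraries are listed in the order of replicates 1, 2 and 3. Kat6a transcripts stood at 50.2% to 66.9% of the E14 mean in the KAT6A knockout and at 59.8% to 75.2% in the double knockout over the 4 days. Kat6b stood at 59.8% to 96.3% in the KAT6B knockout and at 65.4% to 94.6% in the double knockout. The labels used here do not say which part of either gene was altered, so a count over the gene does not check the edit. The summed level of 8 pluripotency markers, among them Pou5f1 and Nanog, was 2784 to 3326 CPM in E14 stem cells at day 0. That of 8 neuron markers, among them Tubb3 and Map2, was 1358 to 2530 CPM in E14 at day 15. One library stood apart at day 15: KAT6B knockout replicate 1 had 18148 CPM of 8 mesenchyme markers (Col1a1, Col1a2, Col3a1, Twist1, Prrx1, Pdgfra, Lum and Acta2), against 2030 to 8673 CPM in the other 11. For several guidance genes, but not for every result that holds this library, values without it are given too. In these bulk samples fewer cells of a type and less RNA per cell cannot be told apart.

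In E14, the guidance genes came on at different days. Ntn1, Unc5b, Slit3 and Robo1 were detected from the start, at 21.3 to 182 CPM in the stem cell libraries, and Dcc was below 1 CPM. The receptors Robo2, Dcc, Unc5c and Unc5a and the ligands Slit2 and Slit1 rose between days 2 and 6, and Dcc, Slit1, Ntn1, Robo2 and Robo1 rose between days 6 and 15. Unc5b was lower in every library of days 6 and 15 than in any of day 2, and Unc5a was highest at day 6. Marker lists moved in the same steps in E14: between days 2 and 6, 7 of 8 mesenchyme markers rose (median log2 3.62) and 6 of 8 neuron markers fell and 1 rose (-1.20), while 3 of 8 floor plate markers rose (1.15), and between days 6 and 15, 8 of 8 neuron markers (4.79) and 7 of 8 mesenchyme markers (3.32) rose, while 3 floor plate markers rose and 1 fell (1.17). Their part in the values of the guidance genes was not tested.

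**Figure D1:**
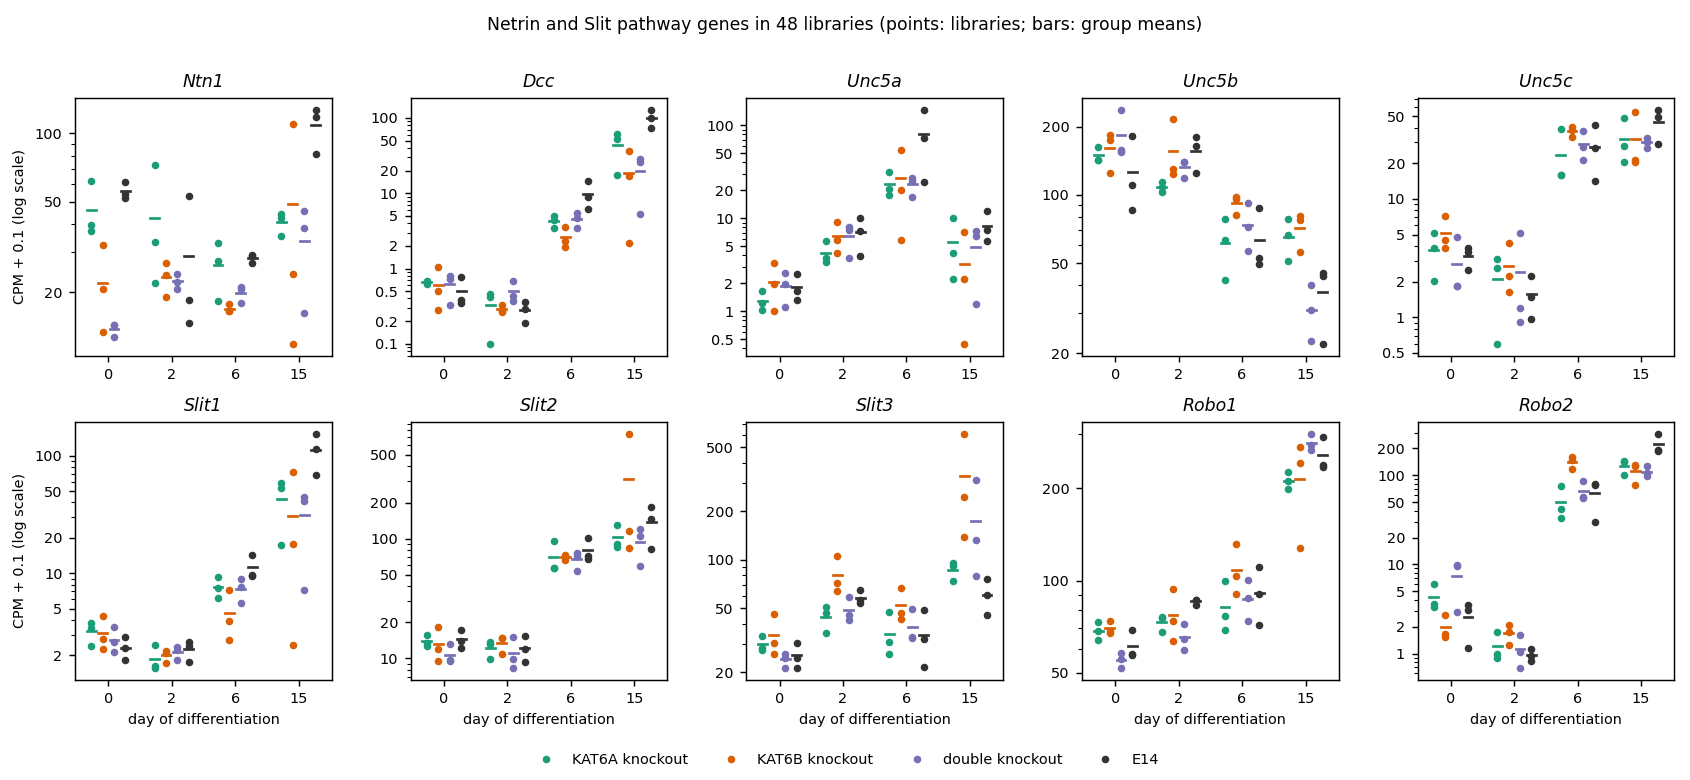
Level of each gene in all 48 libraries, as CPM plus 0.1 on a log scale, by day of differentiation. Points are libraries, short bars are group means, and within each day the KAT6A, KAT6B and double knockouts stand left of E14. Dcc is below 1 CPM in every library at days 0 and 2 and is 73.0 to 129 CPM in E14 at day 15.

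The E14 libraries of successive days were compared with edgeR's quasi-likelihood test with Benjamini-Hochberg adjustment over 20503 genes, and a call is an adjusted p under 0.05. From day 2 to day 6, 8 of the 10 genes were called, 6 higher and 2 lower at day 6, beside 41.7% of all genes tested. From day 6 to day 15, 8 of 10 were called, 7 higher and 1 lower at day 15, beside 54.6% of all genes. Between days 0 and 2, 4 of the 9 genes tested were called, 3 higher and 1 lower at day 2, beside 21.6%. The median log2 change of the members was -0.07, 2.58 and 1.16 over the 3 steps in time order, and that of all genes tested was -0.02, 0.04 and -0.05.

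Among the ligands, Ntn1 was at 51.9, 53.9 and 61.1 CPM in E14 at day 0, at 18.4, 14.6 and 53.1 CPM at day 2, at 26.8, 29.0 and 29.0 CPM at day 6, and at 127, 118 and 81.5 CPM at day 15. The day 15 libraries lay above all others, and at day 2 replicate 3 stood apart from the other 2, near the day 0 level. Ntn1 rose by 1.95 ± 0.36 (log2, SE) from day 6 to day 15, with an adjusted p of 0.000501 by edgeR. From day 2 to day 6 the log2 change was 0.01 (adjusted p = 0.983 by edgeR). Without replicate 3 of day 2 that change was 0.81, with an adjusted p of 0.00486, so it rested on 1 library.

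The 3 Slit genes encode closely related proteins. Slit1, a ligand found mainly in the nervous system, was at 1.73, 2.74 and 2.21 CPM in E14 at day 0, and at 2.49, 1.67 and 2.31 CPM at day 2. It stood at 14.2, 9.38 and 9.62 CPM at day 6, and at 154, 68.4 and 114 CPM at day 15. The groups of days 2, 6 and 15 did not overlap, and the log2 changes were 2.40 ± 0.29 to day 6 and 3.34 ± 0.28 to day 15 (adjusted p = 2.54e-05 and 4.37e-07, edgeR). Slit2, a repellent of the ventral midline, was at 12.0 to 17.0 CPM at day 0, 9.14 to 15.4 CPM at day 2, 67.4 to 101 CPM at day 6 and 81.1 to 184 CPM at day 15. It rose by 2.76 to day 6 (adjusted p = 7.87e-06), and its further change of 0.77 to day 15 (adjusted p = 0.0246) overlapped between the days and was called in 2 of the 6 edgeR fits that left out 1 library.

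Slit3 took another course: it rose to day 2 and was lower at day 6. It was at 25.4 ± 4.70 CPM at day 0, 58.0 ± 5.69 CPM at day 2, 34.0 ± 13.5 CPM at day 6 and 60.3 ± 15.4 CPM at day 15. The rise of 1.19 to day 2 (adjusted p = 0.00684, edgeR) was called in all 6 fits that left out 1 library. The fall of 0.72 to day 6 (log2 -0.72, adjusted p = 0.0361) was called in 1 of 6 such fits and the rise of 0.82 to day 15 (adjusted p = 0.0145) in 3 of 6.

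Of the netrin receptors, Dcc, which mediates attraction, had the largest total change. It was at 0.247, 0.670 and 0.276 CPM at day 0 and at 0.0889, 0.195 and 0.264 CPM at day 2. It reached 14.3, 6.13 and 8.76 CPM at day 6 and 129, 73.0 and 98.8 CPM at day 15. With so few counts before day 6, Dcc passed the filter in this fit through its later days. Its log2 changes of 5.69 ± 0.45 to day 6 and 3.37 ± 0.33 to day 15 had adjusted p of 7.54e-07 and 1.78e-06 by edgeR, and both calls held in all 6 fits that left out 1 library.

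Among the UNC5 receptors, which mediate repulsion from netrin, Unc5c was at 1.46 ± 0.638 CPM at day 2, 27.5 ± 13.8 CPM at day 6 and 44.9 ± 14.4 CPM at day 15, and the first of these changes was called (log2 4.25 ± 0.43, adjusted p = 6.52e-06, edgeR). The second was not (0.70, adjusted p = 0.118), but without replicate 3 of E14 at day 6 it was (1.12, adjusted p = 0.0214, edgeR). Unc5a was at 10.1, 7.31 and 3.83 CPM at day 2, at 148, 24.3 and 73.2 CPM at day 6, and at 11.8, 5.56 and 7.38 CPM at day 15. Every day 6 library was above every library of days 2 and 15, although those of day 6 differed widely among themselves. Unc5a rose by 3.58 ± 0.56 to day 6 and fell by 3.32 to day 15 (adjusted p = 0.000226 and 0.000196, edgeR), and both calls held in all 6 fits that left out 1 library. Its earlier change of 2.04 between days 0 and 2 (adjusted p = 0.0255) was called in 1 of 6.

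Unc5b, the family member best known from blood vessels, ran the other way. It was at 126 ± 49.7 CPM at day 0, 156 ± 28.1 CPM at day 2, 63.1 ± 20.8 CPM at day 6 and 37.0 ± 13.1 CPM at day 15. It fell by 1.26 to day 6 (adjusted p = 0.0067, edgeR), a call kept in all 6 fits that left out 1 library, and its log2 change to day 15 was -0.76 (adjusted p = 0.058). DESeq2 called that change to day 15 (adjusted p = 0.039), as did 3 of the 6 edgeR fits that left out 1 library: those without replicate 2 of day 15, replicate 1 of day 6 or replicate 2 of day 6 (adjusted p = 0.0382, 0.0411 and 0.0458). Over these steps, 6 of 8 endothelium markers rose to day 6 and 6 of 8 fell to day 15, and their part in the Unc5b values was not tested.

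Of the Slit receptors, Robo1 was at 61.1 ± 6.66, 85.4 ± 1.71, 90.7 ± 19.4 and 256 ± 33.2 CPM at days 0, 2, 6 and 15. Only its last step was called in all fits that left out 1 library (log2 1.49 ± 0.15, adjusted p = 2.4e-06, edgeR). Its change of 0.48 between days 0 and 2 (adjusted p = 0.0366) was called in 1 of 6. Robo2 was at 1.04, 2.94 and 3.44 CPM at day 0, at 0.829, 0.723 and 1.01 CPM at day 2, at 80.2, 29.5 and 77.1 CPM at day 6 and at 292, 194 and 185 CPM at day 15. The groups of days 2, 6 and 15 did not overlap. Its log2 change of 6.21 ± 0.46 between days 2 and 6 (adjusted p = 6.5e-07, edgeR) was the largest of the 10 genes in that step, and a further rise of 1.84 ± 0.35 followed (adjusted p = 0.000634). Its change of -1.56 between days 0 and 2 (adjusted p = 0.03) was called in 1 of 6 fits that left out 1 library.

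**Figure D2:**
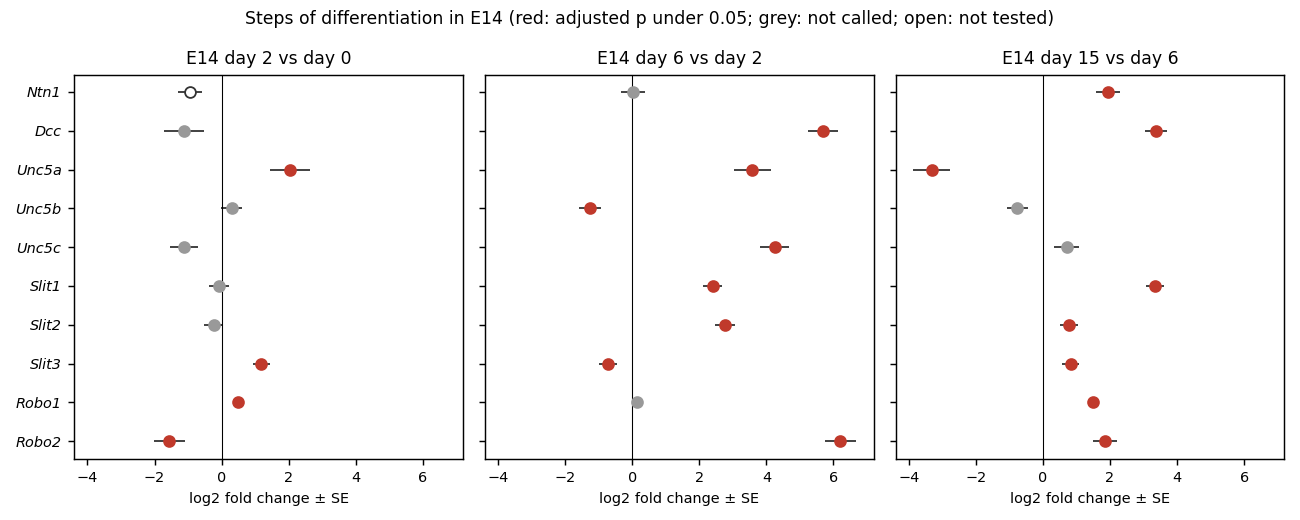
Log2 fold change ± SE of each gene between successive days in E14, later day over earlier day, with red for an adjusted p under 0.05, grey for genes not called and an open point where no test was made. Between days 2 and 6 Robo2 has the largest change (6.21), and Unc5a is at 3.58 for day 6 over day 2 and at -3.32 for day 15 over day 6.

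Per kilobase of exon, a rough scale for levels of different genes, E14 at day 15 held most of Slit1 and Ntn1 (18.9 and 17.4 CPM per kb), then Robo1 (15.5), Robo2 (13.2), Slit3 (9.94) and Dcc (7.60 CPM per kb). Unc5b (5.92), Slit2 (5.38), Unc5c (2.35) and Unc5a (1.98 CPM per kb) were lower. The lengths are unions of exons in GENCODE M21 and so an approximation. Within the ligands, the order by CPM alone would place Slit2 above Slit1 and Ntn1, because the exons of Slit2 sum to 25.4 kb and those of Slit1 and Ntn1 to 5.92 and 6.28 kb.

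Over the 16 group means, Pearson's r of log2 CPM was highest for Dcc with Slit1 (0.98), Robo2 with Unc5c (0.98), Slit2 with Unc5c (0.96) and Slit2 with Robo2 (0.95). Unc5b had a negative r with all 9 others, from -0.41 with Unc5a to -0.89 with Dcc. Ntn1 was most like Slit1 (0.54), and its r with the other members ran from -0.45 to 0.45. Of 12334 genes that averaged 5 CPM or more, those most like Ntn1 were Pcsk1n (0.83), Ddx25 (0.82), Sema5b (0.82), Hap1 (0.80) and Dock3 (0.79). The 16 points share their days and genotypes, and these values are a description only.

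Promoter sequences of RefSeq, from 250 bases before to 50 after the start and on GRCm38.p6 rather than the GRCm39 of the counts, matched 7 of the 10 genes, with 9 promoters in all, and not Ntn1, Dcc or Slit1. The 3 shown belong to Slit2, Unc5c and Robo2, whose levels moved together over the groups, and for Robo2 the start with the most CG pairs of 3 is given. They lie at chr5:47982905-47983204 (plus strand), chr3:141465314-141465613 (plus strand) and chr16:74411776-74412075 (minus strand), and capitals mark GGGCGG or its reverse complement CCGCCC.
Slit2: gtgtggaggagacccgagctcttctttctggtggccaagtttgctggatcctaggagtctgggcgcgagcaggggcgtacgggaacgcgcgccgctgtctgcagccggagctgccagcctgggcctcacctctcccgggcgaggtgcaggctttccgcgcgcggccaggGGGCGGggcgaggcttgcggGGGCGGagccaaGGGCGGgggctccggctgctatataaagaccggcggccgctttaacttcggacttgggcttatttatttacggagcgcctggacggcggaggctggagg
Unc5c: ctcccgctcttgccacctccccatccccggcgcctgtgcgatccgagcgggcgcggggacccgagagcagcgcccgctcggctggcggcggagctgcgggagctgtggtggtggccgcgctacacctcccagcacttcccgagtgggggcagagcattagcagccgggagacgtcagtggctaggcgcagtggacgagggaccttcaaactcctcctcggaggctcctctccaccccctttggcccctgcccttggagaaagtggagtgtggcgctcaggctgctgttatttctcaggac
Robo2: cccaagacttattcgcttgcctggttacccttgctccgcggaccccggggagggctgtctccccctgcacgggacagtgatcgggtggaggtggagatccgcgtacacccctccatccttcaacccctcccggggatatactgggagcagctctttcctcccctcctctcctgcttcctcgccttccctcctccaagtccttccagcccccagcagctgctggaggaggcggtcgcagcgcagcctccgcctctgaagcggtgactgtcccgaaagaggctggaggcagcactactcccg
The Slit2 promoter holds GGGCGG 3 times and TATAAA once, while the Unc5c and Robo2 promoters hold neither on either strand. Over all 32851 promoters of this length, 35.7% hold GGGCGG and 13.6% TATAAA on either strand. AGGTCA, a core element bound by nuclear receptors such as those for retinoic acid, was in none of the 9 member promoters and in 16.3% of all. The 3 shown have 30, 24 and 17 CG pairs, and the median over all promoters is 7. The Robo2 start was picked for its CG pairs, and its other starts have 9 and 5.

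In stem cells at day 0, Ntn1 was low in the double knockout: 14.3, 12.7 and 14.3 CPM in the double knockout, against 51.9, 53.9 and 61.1 CPM in E14. All 3 double knockout libraries lay below all 3 E14 libraries, and the mean was 24.8% of that of E14 (log2 -2.04). This contrast chose the genes, so it is described without a test. The KAT6B knockout stood at 13.4, 20.6 and 32.1 CPM, below all E14 libraries, and the KAT6A knockout at 61.6, 37.1 and 39.5 CPM, which overlapped E14. In the same double knockout contrast the log2 values of the other 9 genes ran from -0.46 (Slit2) to 1.52 (Robo2). Robo2 was at 2.83, 9.71 and 9.43 CPM in the double knockout, against 1.04, 2.94 and 3.44 CPM in E14, and these overlapped. Of all genes tested in this contrast 2.09% were called, 395 of 18935. The 8 mesenchyme markers summed to 526 to 811 CPM in the double knockout and 186 to 295 CPM in E14, with 3 of 7 tested higher. The 8 pluripotency markers summed to 2127 to 2636 CPM in the double knockout and 2784 to 3326 CPM in E14, with 3 of 8 lower. Of the mesenchyme markers, Lum averaged 0.00691 CPM in the double knockout and 0.110 CPM in E14. In the KAT6B knockout the pluripotency markers summed to 2227 to 2336 CPM and the mesenchyme markers to 93.0 to 237 CPM. The part of these markers in the Ntn1 values was not tested.

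Of the other 9 genes at day 0, none was called by edgeR in the KAT6A knockout or in the KAT6B knockout against E14, none had an unadjusted p under 0.05, and DESeq2 called none. Of all genes, 0% were called in the KAT6A knockout (0 of 18935, 899 at an unadjusted p under 0.05 and 7 by DESeq2) and 0.0106% in the KAT6B knockout. That last count, 2 genes, was 1164 without replicate 2 of E14 at day 0 and 0 to 5 without any other single library. All comparisons with E14 at one day use the same E14 libraries, so they are not independent of each other.

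At day 2 Ntn1 was at 72.3, 33.4 and 21.9 CPM in the KAT6A knockout, at 19.1, 23.7 and 26.8 CPM in the KAT6B knockout and at 20.6, 22.2 and 24.0 CPM in the double knockout, against 18.4, 14.6 and 53.1 CPM in E14. The 3 knockouts overlapped E14, with log2 values of 0.55, -0.31 and -0.39 and SE of 0.47 in each. No guidance gene was called by edgeR at day 2. At an unadjusted p under 0.05 there were 2 in the KAT6A knockout, 2 in the KAT6B knockout and 1 in the double knockout, and DESeq2 called 0 in each. Calls by edgeR over all 19594 genes were 0.0102%, 0% and 1.12% in that order. Of these genes 2011, 796 and 2485 had an unadjusted p under 0.05, and DESeq2 called 35, 23 and 658. Robo1 did not overlap E14 in the double knockout, at 59.3, 72.3 and 64.4 CPM in the double knockout against 86.6, 83.4 and 86.2 CPM in E14 (log2 -0.40 ± 0.14, adjusted p = 0.217 by edgeR).

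At day 6, after 2 days of retinoic acid, Ntn1 was at 32.9, 18.3 and 27.5 CPM in the KAT6A knockout, 16.5, 17.7 and 16.5 CPM in the KAT6B knockout and 20.7, 17.8 and 21.0 CPM in the double knockout, against 26.8, 29.0 and 29.0 CPM in E14. The KAT6B and double knockouts lay below E14 without overlap. Log2 values were -0.74 ± 0.18 in the KAT6B knockout and -0.54 ± 0.18 in the double knockout, and neither was called by edgeR (adjusted p = 0.135 and 0.396). Dcc was at 3.40, 4.25 and 4.82 CPM in the KAT6A knockout, 3.46, 2.20 and 1.81 CPM in the KAT6B knockout and 3.30, 5.40 and 4.56 CPM in the double knockout, against 14.3, 6.13 and 8.76 CPM in E14. All 9 knockout libraries lay below the 3 of E14, and the lowest adjusted p was that of the KAT6B knockout (log2 -1.97 ± 0.34, adjusted p = 0.0708 by edgeR).

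Slit1 at day 6 was likewise below E14 in every knockout library, at 6.08 to 9.15 CPM in the KAT6A knockout, 2.59 to 7.05 CPM in the KAT6B knockout and 5.51 to 8.74 CPM in the double knockout, against 9.38 to 14.2 CPM in E14. Robo2 was at 158, 116 and 147 CPM in the KAT6B knockout, against 80.2, 29.5 and 77.1 CPM in E14 (log2 1.17 ± 0.38, adjusted p = 0.241 by edgeR), with all 3 knockout libraries higher. By edgeR no guidance gene was called in any knockout at day 6. At an unadjusted p under 0.05 there were 2 in the KAT6A knockout, 4 in the KAT6B knockout and 3 in the double knockout. DESeq2 called 0, 4 (Ntn1, Dcc, Slit1 and Robo2) and 1 (Dcc) of them. Over all 20533 genes edgeR called 0%, 0.0292% and 0.0682% in the 3 knockouts in that order. Of these genes 1089, 2679 and 1667 had an unadjusted p under 0.05, and DESeq2 called 3, 548 and 256. At day 6 the 8 endothelium markers summed to 354 to 471 CPM in the KAT6B knockout and 99.1 to 376 CPM in E14, which overlapped. Without overlap, the 8 floor plate markers, of the ventral midline that secretes netrin and Slit, summed to 61.5 to 87.3 CPM in the KAT6B knockout and 30.6 to 54.9 CPM in E14. Neuron markers summed to 23.2 to 38.8 CPM in the KAT6B knockout and 42.1 to 61.5 CPM in E14, and astrocyte markers to 80.0 to 109 CPM in the KAT6B knockout and 129 to 146 CPM in E14, also without overlap. In E14 the same neuron markers had summed to 151 to 199 CPM in stem cells at day 0 and 92.3 to 111 CPM at day 2, both above the day 6 sums. None of the markers of these lists was called in the KAT6B knockout against E14 at day 6. Their part in the day 6 values of the guidance genes was not tested.

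**Figure D3:**
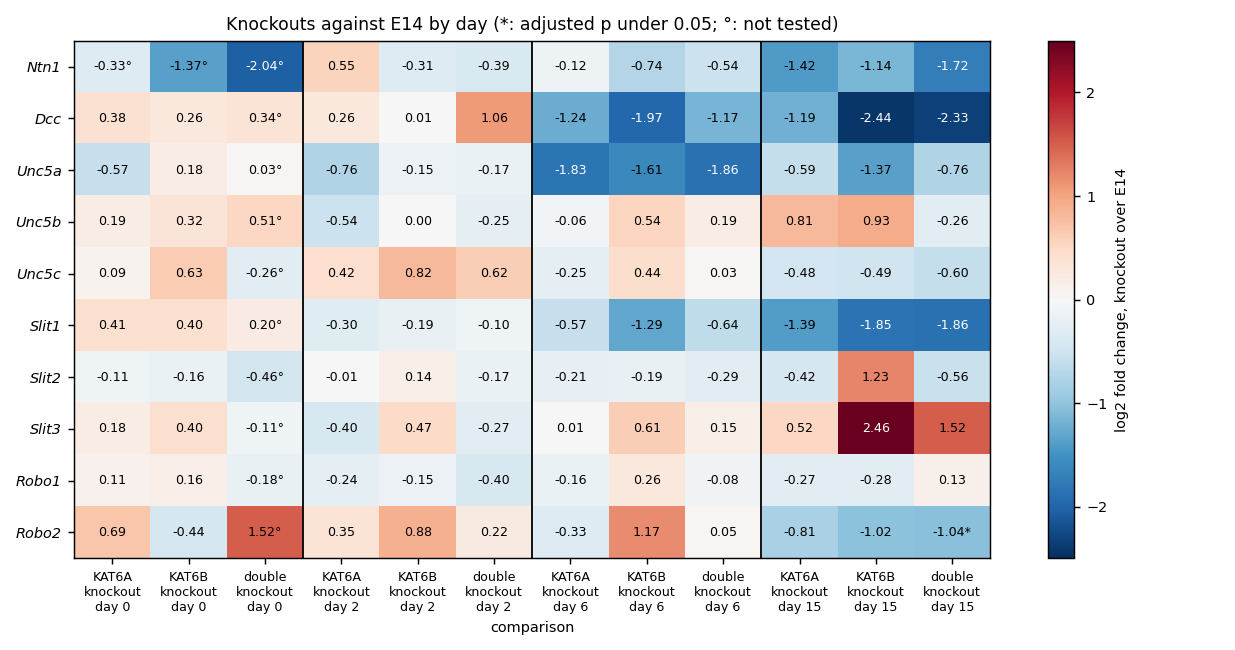
Log2 fold change of each gene in each knockout over E14 at the same day, with a star for an adjusted p under 0.05 and a ring for values given without a test. Robo2 in the double knockout at day 15 (-1.04) carries the only star, and Ntn1, Dcc and Slit1 are negative in every knockout at days 6 and 15.

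At day 15, Ntn1, Dcc, Slit1 and Robo2 were below every E14 library in 8 or 9 of the 9 knockout libraries, and Slit3 was above E14 in the KAT6B and double knockouts. All 9 were set against the same 3 E14 libraries. How many of all genes lay apart from E14 in this way was not counted, at this day or at others. The spread between libraries was the widest of the 4 days, with a biological coefficient of variation of 37.8%, and 1 call was made. Ntn1 was at 35.2, 44.0 and 42.5 CPM in the KAT6A knockout, 110.2, 11.8 and 24.0 CPM in the KAT6B knockout and 16.2, 38.4 and 45.7 CPM in the double knockout, against 127, 118 and 81.5 CPM in E14. The KAT6A and double knockouts lay below E14 without overlap, and 1 KAT6B knockout library reached into the E14 range. Log2 values were -1.42 ± 0.69, -1.14 ± 0.69 and -1.72 ± 0.70, and none was called by edgeR (adjusted p = 0.465, 0.363 and 0.165). Without KAT6B knockout replicate 1, the library rich in mesenchyme markers, Ntn1 was lower in the KAT6B knockout (log2 -2.64, adjusted p = 0.0237 by edgeR). In that fit 2 of the 10 guidance genes were called, Ntn1 and Robo2, beside 1946 of all 20856 genes. By group mean, Ntn1 was highest in E14 at day 15 (109 CPM) and lowest in the double knockout at day 0 (13.8 CPM). Neither group overlapped its neighbour in that order, but both overlapped other groups. The KAT6B knockout had a library at 13.4 CPM at day 0, and libraries at 11.8 and 110.2 CPM at day 15. The other 14 means lay between 16.9 and 55.6 CPM.

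Dcc at day 15 was at 17.5, 60.6 and 52.9 CPM in the KAT6A knockout, 35.9, 2.11 and 16.9 CPM in the KAT6B knockout and 26.0, 28.4 and 5.27 CPM in the double knockout, against 129, 73.0 and 98.8 CPM in E14. All 9 knockout libraries lay below the 3 of E14. The log2 values of -1.19 ± 0.87, -2.44 ± 0.91 and -2.33 ± 0.90 had adjusted p of 0.598, 0.183 and 0.152 by edgeR. Slit1 was at 17.1, 52.7 and 58.0 CPM in the KAT6A knockout, 72.2, 2.34 and 17.5 CPM in the KAT6B knockout and 44.7, 41.0 and 7.16 CPM in the double knockout, against 154, 68.4 and 114 CPM in E14. The KAT6A and double knockouts did not overlap E14, the KAT6B knockout did, and the lowest adjusted p was 0.284 in the double knockout (log2 -1.86 ± 1.03, edgeR).

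Robo2 at day 15 was at 101, 139.8 and 143 CPM in the KAT6A knockout, 78.2, 129.6 and 127 CPM in the KAT6B knockout and 106, 96.8 and 126 CPM in the double knockout, against 292, 194 and 185 CPM in E14. All 9 knockout libraries lay below the 3 of E14. In the double knockout the mean was 49.0% of that of E14, and Robo2 was the only guidance gene called among the tests of a knockout against E14 (log2 -1.04 ± 0.23, adjusted p = 0.0426 by edgeR). Dropping any 1 of the 6 libraries ended the call (adjusted p between 0.0766 and 0.191, log2 between -1.15 and -0.79). In the KAT6B knockout the log2 value was -1.02 ± 0.23 (adjusted p = 0.0741), and -0.84 (adjusted p = 0.0459) without replicate 1, both by edgeR. The fit without that replicate called 1946 of 20856 genes. In the KAT6A knockout the log2 value of Robo2 was -0.81 ± 0.23 (adjusted p = 0.313 by edgeR).

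Both other Slit genes had 1 or more knockout libraries far above E14. Slit3 was at 91.1, 73.4 and 95.2 CPM in the KAT6A knockout, 609, 245 and 139 CPM in the KAT6B knockout and 78.7, 133 and 313 CPM in the double knockout, against 60.0, 45.0 and 75.8 CPM in E14. The KAT6B and double knockouts lay above E14 without overlap, with log2 values of 2.46 ± 0.59 and 1.52 ± 0.57 (adjusted p = 0.0821 and 0.144 by edgeR). Slit2 was at 751, 115 and 82.7 CPM in the KAT6B knockout, where replicate 1 stood far above all other libraries, against 146, 81.1 and 184 CPM in E14, and the groups overlapped. Without that replicate the log2 value of Slit2 in the KAT6B knockout was -0.51 (adjusted p = 0.388), against 1.23 (adjusted p = 0.359) with it, and that of Slit3 was 1.63 (adjusted p = 0.0618, edgeR). Dcc and Slit1 stood at -3.42 and -3.52 on the log2 scale without it (adjusted p = 0.0635 and 0.0649, edgeR). Robo1 was at 211, 198 and 226 CPM in the KAT6A knockout, 127, 241 and 272 CPM in the KAT6B knockout and 301, 277 and 265 CPM in the double knockout, against 294, 235 and 239 CPM in E14. Its log2 values lay between -0.28 and 0.13.

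The UNC5 receptors were not called at day 15. Unc5b was at 66.3, 78.3 and 51.1 CPM in the KAT6A knockout and 80.2, 77.0 and 55.8 CPM in the KAT6B knockout, both above the 21.9, 45.2 and 43.9 CPM of E14 without overlap. In the double knockout Unc5b was at 30.9, 39.7 and 22.5 CPM, which overlapped E14. Unc5c averaged 32.2 ± 14.6, 31.8 ± 19.0 and 29.9 ± 2.76 CPM in the KAT6A, KAT6B and double knockouts, against 44.9 ± 14.4 CPM in E14. In the KAT6B knockout replicate 1 had 53.8 CPM of Unc5c and the others 21.4 and 20.3 CPM, and without it the log2 value was -1.14 (adjusted p = 0.0718, edgeR), against -0.49 (adjusted p = 0.538) with it. Unc5a averaged 5.46 ± 4.14, 3.17 ± 3.48 and 4.87 ± 3.29 CPM in the same order, against 8.26 ± 3.23 CPM in E14. Its log2 value in the KAT6B knockout was -2.76 (adjusted p = 0.105, edgeR) without replicate 1, against -1.37 (adjusted p = 0.443) with it.

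In all, edgeR called 0 guidance genes in the KAT6A knockout, 0 in the KAT6B knockout and 1 in the double knockout at day 15. At an unadjusted p under 0.05 there were 2, 4 and 4, and DESeq2 called 0, 3 (Dcc, Slit3 and Robo2) and 2 (Dcc and Robo2). Over all 20225 genes edgeR called 0%, 0.0742% and 3.18% in the same order. Of these genes 2304, 4045 and 4974 had an unadjusted p under 0.05, and DESeq2 called 335, 1839 and 2724. The median log2 value of the 10 genes was -0.53, -0.76 and -0.68, and that of all genes was 0.01, 0.05 and 0.01.

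Marker sums of several cell types were apart between these libraries as well. The 8 neuron markers summed to 336, 978 and 1339 CPM in the KAT6A knockout, 942, 59.3 and 386 CPM in the KAT6B knockout and 815, 816 and 137 CPM in the double knockout, against 2530, 1358 and 1621 CPM in E14. None of the 8 was called in any knockout, and each was detected in every genotype. The 2 libraries with the least of these markers, KAT6B knockout replicate 2 and double knockout replicate 3, also had the least Dcc and Slit1. The 8 mesenchyme markers summed to 2773 to 6881 CPM in the KAT6A knockout, 5060 to 18148 CPM in the KAT6B knockout and 7898 to 8673 CPM in the double knockout, against 2030 to 4475 CPM in E14, again with none of 8 called. The 8 neural progenitor markers summed to 421 to 651, 173 to 474 and 156 to 346 CPM in the KAT6A, KAT6B and double knockouts, against 893 to 1073 CPM in E14, and in the double knockout 4 of the 8 fell. The 8 astrocyte markers summed to 113 to 214, 87.6 to 169 and 77.2 to 122 CPM, against 423 to 690 CPM in E14, and 5 of 7 tested fell in the double knockout. The astrocyte marker S100b averaged 0.0963 CPM in the double knockout and 0.00578 CPM in E14. In the double knockout 4 other sums lay above E14 without overlap. Endoderm markers summed to 1273 to 1589 CPM in the double knockout and 769 to 1051 CPM in E14, and pluripotency markers to 453 to 553 CPM in the double knockout and 250 to 405 CPM in E14. Endothelium markers summed to 246 to 289 CPM in the double knockout and 72.8 to 150 CPM in E14. Floor plate markers summed to 112 to 145 CPM in the double knockout and 63.2 to 109 CPM in E14, mostly Foxa2, while Shh averaged 0.464 CPM in the double knockout and 3.21 CPM in E14. Of these lists, 1 endoderm marker fell, 1 pluripotency marker rose and none of the others was called. All marker calls in the double knockout at day 15 were lost with the replicate number as a block, where 0 genes were called. Median log2 values over the markers tested were 0.75 (endoderm), -0.76 (pluripotency), -0.04 (endothelium) and -0.99 (floor plate). A sum above E14 therefore did not mean that most markers of a list were higher. The part of these cell types in the guidance gene values was not tested.

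**Figure D4:**
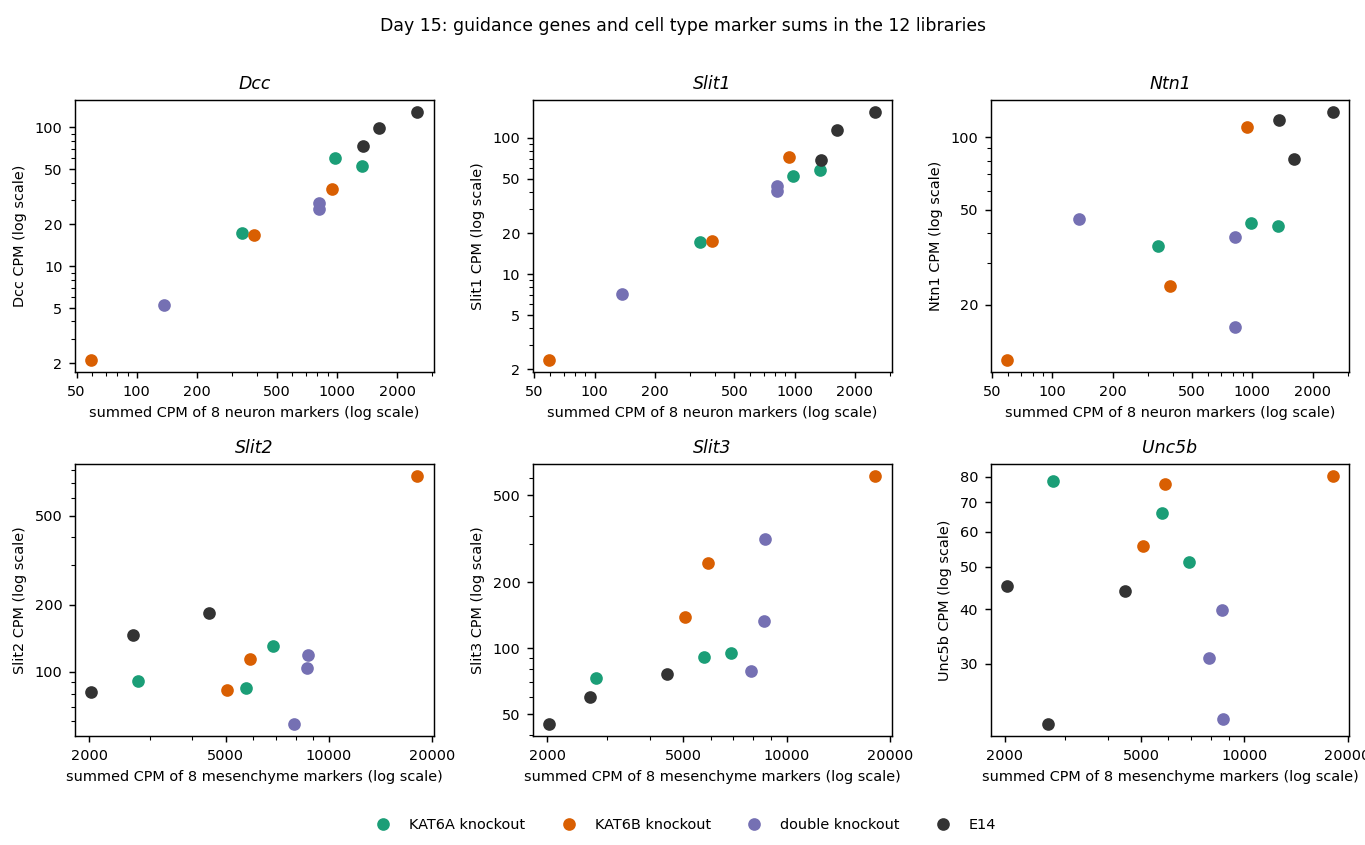
Day 15 level of 6 guidance genes in the 12 libraries, in CPM on a log scale, against the summed CPM of 8 neuron markers (upper row) or 8 mesenchyme markers (lower row), both on log scales, with 1 point per library coloured by genotype. The libraries with 59.3 and 137 CPM of neuron markers have 2.11 and 5.27 CPM of Dcc, and the library with 18148 CPM of mesenchyme markers has the highest Slit2 and Slit3.

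Whether the course of a gene differed between a knockout and E14 was tested as a difference of steps over all 48 libraries (22626 genes). Robo2 differed between the KAT6B knockout and E14 in the step between days 6 and 15. It averaged 112 ± 28.9 CPM at day 15 and 140.3 ± 21.7 CPM at day 6 in the KAT6B knockout, against 224 ± 59.3 CPM at day 15 and 62.3 ± 28.4 CPM at day 6 in E14. The difference of the steps was -2.18 ± 0.54 on the log2 scale, with an adjusted p of 0.0208 by edgeR. The call held in 10 of 12 fits that left out 1 library. It was lost without replicate 1 of E14 at day 15 (adjusted p = 0.0967) and without replicate 2 of E14 at day 6 (adjusted p = 0.0738). Slit3 in the same comparison had a difference of 1.85 ± 0.54 (adjusted p = 0.0505). DESeq2 called it (adjusted p = 0.0189), and so did edgeR without replicate 2 of E14 at day 6 (adjusted p = 0.0492) or replicate 3 of the KAT6B knockout at day 15 (adjusted p = 0.0147). Without replicate 1 of the KAT6B knockout at day 15 the Slit3 difference was 1.06 (adjusted p = 0.169, edgeR). Ntn1, at -0.42 with all libraries, was at -1.86 (adjusted p = 0.0353) without KAT6B knockout replicate 1 of day 15. The Robo2 difference was -1.97 (adjusted p = 0.0223) without that library. With all libraries Robo2 was thus 1 called gene of 10 in the KAT6B knockout, beside 2.86% of all genes. Without KAT6B knockout replicate 1 of day 15, 2 of 10 were called, beside 2319 of 23098 genes.

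In the same step, edgeR called 0 of 10 guidance genes in the KAT6A knockout and 0 of 10 in the double knockout. At an unadjusted p under 0.05 there were 1 and 2, and DESeq2 called 0 in each. Of all genes edgeR called 0.0221% and 2.09%, 2230 and 4238 had an unadjusted p under 0.05, and DESeq2 called 59 and 1043. In the step from day 2 to day 6, 0 of 10 were called in the KAT6A, the KAT6B and the double knockout by edgeR or DESeq2, with 0, 0 and 1 at an unadjusted p under 0.05, and 0% of all genes were called in each. Over all genes there were 892, 1031 and 656 at an unadjusted p under 0.05, and DESeq2 called 0, 4 and 0. In the step from day 0 to day 2, 0 of 9 were called in the KAT6A and the KAT6B knockout by either tool, 0 had an unadjusted p under 0.05, and 0% of all genes were called. Over all genes 1162 and 744 had an unadjusted p under 0.05, and DESeq2 called 0 and 2.

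The double knockout was also set against each single knockout at days 2, 6 and 15. No guidance gene was called by edgeR in any of these 6 comparisons. At an unadjusted p under 0.05 against the KAT6A knockout there were 0, 1 and 1 genes at days 2, 6 and 15, and DESeq2 called 0 at each day. Against the KAT6B knockout there were 1, 2 and 2, and DESeq2 called 1 at day 2 (Slit3) and 0 later. Over all genes, edgeR called 0.0153%, 0.00974% and 0.00494% against the KAT6A knockout at the 3 days, and 0.0102%, 0% and 0% against the KAT6B knockout. An unadjusted p under 0.05 was reached by 1518, 503 and 1021 genes against the KAT6A knockout and by 1788, 2674 and 945 against the KAT6B knockout. DESeq2 called 112, 11 and 71 genes against the KAT6A knockout and 217, 658 and 77 against the KAT6B knockout. Unc5b at day 15 did not overlap, at 30.9, 39.7 and 22.5 CPM in the double knockout against 66.3, 78.3 and 51.1 CPM in the KAT6A knockout and 80.2, 77.0 and 55.8 CPM in the KAT6B knockout (log2 -1.08 ± 0.31 and -1.19 ± 0.31, adjusted p = 0.803 and 0.772 by edgeR). At day 6, Robo2 in the double knockout (55.0, 56.3 and 86.1 CPM) lay below the KAT6B knockout (158, 116 and 147 CPM), with a log2 value of -1.12 ± 0.38 (adjusted p = 0.239, edgeR).

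Other genes of the same systems were counted from 2 lists. Of 19 other ligands and receptors of the netrin and Slit systems, 2 rose and 1 fell in E14 between days 0 and 2, 11 rose and 0 fell between days 2 and 6, and 12 rose and 3 fell between days 6 and 15. Their median log2 change was -0.07, 1.01 and 1.40 over the steps in time order, beside -0.02, 0.04 and -0.05 for all genes, of which 21.6%, 41.7% and 54.6% were called. Neo1, a netrin and RGM receptor related to Dcc, was at 101.4 ± 3.11 CPM at day 2 against 64.1 ± 7.43 CPM at day 0, and its ligand Rgma at 8.14 ± 1.54 CPM against 3.98 ± 1.23 CPM. Flrt3, an adhesion protein of the same family as Flrt2, was at 82.3 ± 13.2 CPM at day 6 against 9.58 ± 1.44 CPM at day 2. Nell2, a ligand of Robo3, was at 111 ± 35.1 CPM at day 15 against 7.04 ± 5.45 CPM at day 6. Ntng2, a membrane-anchored netrin, was at 11.8 ± 5.14 CPM at day 6 against 0.364 ± 0.140 CPM at day 2 (log2 5.08). Ntng1, its relative, was at 18.5 ± 5.99 CPM at day 15 against 0.538 ± 0.366 CPM at day 6 (log2 5.08). Dscam, a cell adhesion molecule that can act as a netrin receptor, was at 51.1 ± 18.5 CPM at day 15 against 2.27 ± 0.335 CPM at day 6 (log2 4.49).

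Ntn4, a netrin of basement membranes, was at 253 ± 30.9 CPM at day 15 and 2.65 ± 0.374 CPM at day 6 in the double knockout, against 88.7 ± 31.2 CPM at day 15 and 4.15 ± 0.791 CPM at day 6 in E14. The difference of the steps was called (log2 2.15 ± 0.53, adjusted p = 0.0242, edgeR), beside 2.09% of all genes. In the KAT6B knockout the same step differed from that of E14 for Dag1, of the same list (log2 0.72 ± 0.18, adjusted p = 0.0225, edgeR), beside 2.86% of all genes. Flrt2, a membrane protein that binds UNC5 receptors, was at 271 ± 16.9 CPM in the double knockout and 160.2 ± 18.1 CPM in E14 at day 15 (log2 0.74 ± 0.12, adjusted p = 0.0222, edgeR). It was the only one of 18 tested on this list called in a knockout at day 15, beside 3.18% of all genes in that comparison. Those 643 genes became 0 with the replicate number as a block, and 0 to 102 when 1 library was left out. The Flrt2 call at day 15 was thus lost with the block. At day 0 Flrt2 was at 13.7 ± 2.14 CPM in the double knockout and 4.94 ± 1.47 CPM in E14, in the contrast that chose the genes.

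Of 26 cytoplasmic proteins that act below these receptors, 1 rose and 2 fell in E14 between days 0 and 2, 9 rose and 4 fell between days 2 and 6, and 18 rose and 1 fell between days 6 and 15. Their median log2 change was 0.06, 0.04 and 0.57 over the steps in time order, and the same shares of all genes (21.6%, 41.7% and 54.6%) stand beside these counts. Trim67, an E3 ubiquitin ligase that acts with DCC, was at 16.7 ± 2.85 CPM at day 2, 1.01 ± 0.126 CPM at day 6 and 135.8 ± 53.2 CPM at day 15. Its relative Trim9 was at 59.0 ± 23.0 CPM at day 15 against 5.20 ± 3.33 CPM at day 6 (log2 3.51). Srgap3, which binds ROBO receptors and regulates Rac, was at 206 ± 53.7 CPM at day 15 against 30.6 ± 9.63 CPM at day 6 (log2 2.75). Nck2, an adaptor that links receptors to actin, was at 58.9 ± 12.0 CPM at day 6 against 24.8 ± 1.52 CPM at day 2, and Myo10, a motor of filopodia, was at 177 ± 10.0 CPM at day 6 against 408 ± 19.9 CPM at day 2. Ablim1, an actin-binding protein, was at 90.3 ± 11.1 CPM at day 15 against 23.7 ± 4.87 CPM at day 6. Each of these was called in E14 with groups that did not overlap. Enah, an actin regulator, was the 1 effector of 26 called in a knockout at day 15, near the 3.18% of all genes called there, at 174 ± 28.1 CPM in the double knockout and 277 ± 9.49 CPM in E14 (log2 -0.68 ± 0.14, adjusted p = 0.0341, edgeR). That call too was lost with the replicate number as a block. In the step from day 6 to day 15 Enah also differed between the KAT6B knockout and E14 (log2 -0.68 ± 0.18, adjusted p = 0.0328, edgeR), beside 2.86% of all genes.

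By the deposited table, the genes lie on 8 chromosomes of GRCm39. The ligands are Ntn1 at chr11:68100190-68291649 (minus strand), Slit1 at chr19:41588696-41732104 (minus), Slit2 at chr5:48140480-48465075 (plus) and Slit3 at chr11:35012051-35599334 (plus). The netrin receptors are Dcc at chr18:71386705-72484140 (minus), Unc5a at chr13:55097224-55153831 (plus), Unc5b at chr10:60598372-60667360 (minus) and Unc5c at chr3:141170977-141540685 (plus). Robo1 at chr16:72105194-72842983 (plus) and Robo2 at chr16:73688727-74208713 (minus) lie on opposite strands of the same chromosome. Entries of other genes overlap several of them. Hk3, on the opposite strand, had 9.48% as many counts as Unc5a, Gm19972, on the same strand, had 6.94% as many as Unc5b, and the others had under 3%. The strand setting of the counting is not given in the sources used here, so values of Unc5a and Unc5b are uncertain to that extent.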

How the data were processed

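The authors deposited 1 table of raw counts per gene for 48 RNA-seq libraries of paired 150 bp reads, made with rRNA depletion and a directional kit per the labels' protocols. The submitters' processing notes name HISAT2 and GRCm39. Which program counted the reads, with which strand setting and annotation, is not given in the sources used here. Of 36983 rows, 48 repeated an identifier; the first entry was kept, which left 36935 genes, and no guidance gene was among them. Genes that passed edgeR's filterByExpr (minimum count 10, minimum total 15) were tested with edgeR 4.0.16 (R 4.3.3) by its quasi-likelihood test with TMM scaling, 1 fit per day over 4 genotypes, 1 over the E14 libraries and 1 over all 48 for differences of steps. P-values were adjusted over all genes by Benjamini-Hochberg, with a threshold of 0.05. Alternatives were relative log expression scaling, no filter, DESeq2 1.42.0, leaving out each library in turn, and the replicate number as a block. The fits were tested on simulated data.

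The labels name 3 independent differentiation experiments, and p-values measure the spread between them. The members and gene lists were chosen with earlier results of these data known. All 10 members are named. From the 2 other lists, genes were named from up to 4 called genes per comparison with the largest change and no overlap between groups. For differences of steps, overlap was not considered. Genes like Ntn1 are the 5 with the highest r among genes that averaged 5 CPM or more. Log2 CPM for that measure used a prior count of 2.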

Additional observations from a re-analysis of the deposited data

Results flagged for a closer look

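The course of Robo2 between days 6 and 15 differed between the KAT6B knockout and E14 by a test of the difference itself. The difference of the log2 changes was -2.18 ± 0.54 (SE), with an adjusted p of 0.0208 by edgeR's quasi-likelihood test with Benjamini-Hochberg adjustment. In the KAT6B knockout the libraries stood at 78.2, 129.6 and 127 CPM at day 15 and at 158, 116 and 147 CPM at day 6, while those of E14 stood at 292, 194 and 185 CPM at day 15 and at 80.2, 29.5 and 77.1 CPM at day 6. The day 15 and day 6 libraries overlapped in the KAT6B knockout and did not in E14. The summed levels of neuron and of mesenchyme markers also lay apart between these groups at day 15, with none of the 8 markers of either list called. The part of these markers in the result was not tested.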

How the results depend on the processing

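No direction of a guidance gene that was called turned round under any alternative, and relative log expression scaling changed no call of a guidance gene. With DESeq2 the number of guidance genes called was 4 in the KAT6B knockout at day 6 (0 by edgeR), 1 in the double knockout at day 6 (0), 3 in the KAT6B knockout at day 15 (0), 2 in the double knockout at day 15 (1), 1 in the double knockout against the KAT6B knockout at day 2 (0) and 2 for the KAT6B knockout in the step from day 6 to day 15 (1). Without the filter on low counts 1 was called in the KAT6B knockout at day 6 and 2 in E14 between days 0 and 2, where 4 were called with it. Leaving out 1 library at a time gave 0 to 2 calls in the KAT6B knockout at day 15, 0 in every fit of the double knockout at day 15, 1 to 3 in E14 between days 0 and 2, and 0 to 2 for the KAT6B knockout in the step from day 6 to day 15. The causes were not tested.

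Counts of all genes called moved more. By edgeR and DESeq2 they were 2 and 233 in the KAT6B knockout at day 0, 395 and 1125 in the double knockout at day 0, 220 and 658 in the double knockout at day 2, 6 and 548 in the KAT6B knockout at day 6, 14 and 256 in the double knockout at day 6, 15 and 1839 in the KAT6B knockout at day 15, and 643 and 2724 in the double knockout at day 15. For the KAT6A knockout the same pairs were 0 and 7, 2 and 35, 0 and 3, and 0 and 335 at days 0, 2, 6 and 15, and in the KAT6B knockout at day 2 they were 0 and 23. For the double knockout at days 2, 6 and 15 they were 3 and 112, 2 and 11, and 1 and 71 against the KAT6A knockout, and 2 and 217, 0 and 658, and 0 and 77 against the KAT6B knockout. For the steps from day 6 to day 15 they were 5 and 59 in the KAT6A knockout, 646 and 1194 in the KAT6B knockout and 472 and 1043 in the double knockout. Without the filter they were 48 in the KAT6B knockout at day 0, 59 and 33 in the KAT6B and double knockouts at day 6, 399 and 309 in the steps of the same knockouts from day 6 to day 15, and 11, 29 and 96 in the double knockout against the KAT6A knockout at day 2 and the KAT6B knockout at days 2 and 6. Leaving out 1 library gave 1985 to 5481 in E14 between days 0 and 2, 7 to 263 in the double knockout at day 2, 0 to 102 in the double knockout at day 15, 0 to 1946 in the KAT6B knockout at day 15, 80 to 1940 in the double knockout at day 0, 0 to 1164 in the KAT6B knockout at day 0 and 97 to 2319 in the step of the KAT6B knockout.

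Same-numbered libraries correlated more than others within days 0, 2 and 6 but not within day 15. Their median r was 0.08, 0.06 and 0.13 at days 0, 2 and 6, against -0.03, -0.03 and -0.07 for libraries of different numbers. At day 15 it was -0.09 against 0.05. Of 12 libraries at each day, 8, 7, 9 and 4 correlated best with their own number, 28 of 48 in all. Single correlations of same-numbered libraries within a day ran from -0.47 to 0.48. The main fits did not use the replicate number. With the replicate number as a block, the guidance genes called were 1 in the KAT6B knockout at day 6 (Dcc, log2 -1.96, adjusted p = 0.0292 by edgeR), 0 in the double knockout at day 15 and 2 for the KAT6B knockout in the step from day 6 to day 15. Robo2 in the double knockout at day 15 had a log2 value of -1.06 and an adjusted p of 0.0872 with the block. Slit3 in the step of the KAT6B knockout was called with it (adjusted p = 0.0418), as were Unc5b (0.0453) and Unc5c (0.045) in E14 between days 6 and 15 and Unc5c in E14 between days 0 and 2 (0.0289), which DESeq2 also called (0.0243). All genes called became 26 in the KAT6B and 605 in the double knockout at day 0, 39 in the double knockout at day 6, 194 in the double knockout against the KAT6B knockout at day 6, 371 in the KAT6B knockout at day 6, 0 in the double knockout at day 15 and 886 in that step.

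The biological coefficient of variation was 37.8% at day 15 and 19.3% at day 0, so differences of the same size are harder to call at day 15. Dcc, below 1 CPM before day 6, rests on few counts there.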
